A study of Mus musculus with 29 samples.

Results

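The 43 genes described here are interferon response genes: mouse genes whose transcription type I or type II interferon is known to raise. They were listed by name, with no threshold on a measured value, and all 43 were found among the 55292 gene names counted in each library. The list was chosen with earlier results of these data known. Poly-A RNA of the atria of male mice was sequenced in 29 libraries of 6 groups, to compare transgenic NaV1.5 mice with controls on both diets and to test nicotinamide riboside. The labels name the transgene only as NaV1.5 and give neither its allele, its promoter, the strain nor the number of mice behind a library. The diet experiment held NaV1.5 mice fed a high-fat diet for 4 weeks, begun when they were 5 weeks old (NaV1.5_HFD, n = 5), NaV1.5 mice on regular diet (NaV1.5_RD, n = 4), control mice on the same high-fat diet (Ctrl_HFD, n = 4) and control mice on regular diet (Ctrl_RD, n = 4). The second experiment used NaV1.5 mice only, all on 4 weeks of high-fat diet from the same age. One group also received nicotinamide riboside, a precursor of NAD+ (NR, n = 7), and the other received vehicle (n = 5). The labels do not say that the libraries of a group are separate mice, so p-values measure the spread between these libraries, which may be technical.

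Interferons are secreted proteins, and cells release type I interferon when they sense foreign or misplaced nucleic acid. Type I interferon signals through its receptor, JAK kinases and a complex that includes Stat2 and Irf9 and binds the interferon-stimulated response element, while interferon gamma has its own receptor and acts on the gamma-activated site. The induced genes encode sensors, antiviral proteins, GTPases that act on the vacuoles of intracellular pathogens, and the machinery of class I antigen presentation. Low levels of these transcripts are normally present in uninfected tissues, the heart included.

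Library totals ran from 13189995 to 33061018 read pairs assigned to genes, and a member had between 7 and 4202 counts in a library. All 43 members passed the filter on low counts in both experiments, so none was dropped. Levels are given as CPM, the share of a library's counts that fell on a gene, after TMM scaling of the library total. The labels put 16 of the 17 diet libraries in batch 1 and Ctrl_HFD replicate 4 in batch 2, and the batch term of the fit absorbed that library, so it entered none of the differences from that fit. It does enter the alternatives with no batch term or with all 29 libraries in one fit. Transcripts of atrial cardiomyocytes, among them Nppa, were present in every library, with none of the 8 markers at 0. An added record named flag had 0 counts in all libraries, so it does not check the genotype labels.

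At baseline, in atria of control mice on regular diet, the 43 genes differed widely in level. Compared per kb of gene length, the highest was Ifi27l2a, a small protein of the Ifi27 family, at 139 ± 54.6 CPM per kb (SD, n = 4 here and below). Bst2, which tethers budding virus to the cell, followed at 49.1 ± 12.01 CPM per kb, then Gbp2 at 16.9 ± 2.01 and Ifi35 at 15.02 ± 1.74 CPM per kb. The spreads of the neighbours Gbp2, Ifi35 and Ifit3 (13.6 ± 4.62 CPM per kb) overlapped. These genes share the same 4 libraries, and their order within libraries was not tested. The lowest were Mx1, Ddx60 and Oas3, at 0.371 ± 0.126, 0.344 ± 0.0313 and 0.109 ± 0.0596 CPM per kb. The coefficient of variation across the 4 libraries was 3.31% for Parp12, an ADP-ribosyltransferase, and 54.7% for Oas3, with a median of 24.3% over the 43 genes.

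Many members lie in gene clusters. In build GRCm38, Gbp7, Gbp3 and Gbp2 lie within 108 kb of chromosome 3, the 4 Ifit genes within 99 kb of chromosome 19, and Oas1a, Oas2 and Oas3 within 177 kb of chromosome 5. Psmb9, Tap1 and Psmb8 lie within 19 kb of chromosome 17. Members of these families resemble each other in sequence, and read pairs that mapped to several places were left out by the authors, so the level of near-identical copies such as Ifit3 and Ifit3b is uncertain.

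Promoter windows from RefSeq (build GRCm38.p6, 250 bases before to 50 bases after each gene's start) matched 33 of the 43 genes by symbol; Dhx58, Ifi27l2a, Iigp1, Mx1, Mx2, Nlrc5, Oas2, Rtp4, Usp18 and Zbp1 were not matched. The core of the interferon-stimulated response element, GAAANNGAAA on either strand with overlapping matches counted, was present in a window of 19 of these 33 genes (57.6%), against 1079 of all 27025 genes with a window (3.99%), a gene with several windows being counted once. A core of the interferon gamma-activated site, TTCNNNGAA, was present in 9 of the 33 genes (27.3%), against 2582 of all 27025 (9.55%). All 5 matched GTPase genes and all 3 matched sensor genes held the response element core, as did 3 of 4 Ifit genes and 2 of 4 Oas or Oasl genes. It was found in 1 of 4 transcription factor genes, in 0 of the 3 class I genes matched (Tap1, Psmb8 and Psmb9) and in 0 of 3 matched genes of a mixed set of other induced genes (Ifi44, Ifi35, Xaf1). A match is a run of letters, not a shown binding site. The windows of the 4 matched GTPase genes that rose with the diet are printed first, followed by Isg15 and Ifit1, classical type I targets of which neither was called. Each is written 5′ to 3′ on the strand of its gene, with the response element core in capitals, and the position of the core is that of its first base relative to the gene's start.
Gbp7 (GRCm38.p6, chr3:142530086-142530385, plus strand): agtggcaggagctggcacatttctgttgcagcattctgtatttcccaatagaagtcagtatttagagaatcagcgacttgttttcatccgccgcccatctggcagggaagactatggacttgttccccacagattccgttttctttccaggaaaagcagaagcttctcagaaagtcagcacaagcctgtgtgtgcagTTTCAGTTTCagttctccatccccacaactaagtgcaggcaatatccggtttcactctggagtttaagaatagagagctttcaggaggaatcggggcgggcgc
Gbp3 (GRCm38.p6, chr3:142559794-142560093, plus strand): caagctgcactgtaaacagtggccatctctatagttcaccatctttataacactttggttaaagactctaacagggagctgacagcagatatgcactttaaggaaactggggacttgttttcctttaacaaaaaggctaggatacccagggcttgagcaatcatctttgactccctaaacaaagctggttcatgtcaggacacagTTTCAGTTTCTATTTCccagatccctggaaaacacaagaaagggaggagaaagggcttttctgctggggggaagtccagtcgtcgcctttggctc
Gbp2 (GRCm38.p6, chr3:142620413-142620712, plus strand): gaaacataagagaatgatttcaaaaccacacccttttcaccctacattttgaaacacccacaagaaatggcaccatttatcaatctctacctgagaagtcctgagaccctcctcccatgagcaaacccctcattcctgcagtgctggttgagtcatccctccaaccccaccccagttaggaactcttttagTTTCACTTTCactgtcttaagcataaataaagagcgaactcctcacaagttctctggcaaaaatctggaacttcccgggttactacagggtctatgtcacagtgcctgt
Igtp (GRCm38.p6, chr11:58199306-58199605, plus strand): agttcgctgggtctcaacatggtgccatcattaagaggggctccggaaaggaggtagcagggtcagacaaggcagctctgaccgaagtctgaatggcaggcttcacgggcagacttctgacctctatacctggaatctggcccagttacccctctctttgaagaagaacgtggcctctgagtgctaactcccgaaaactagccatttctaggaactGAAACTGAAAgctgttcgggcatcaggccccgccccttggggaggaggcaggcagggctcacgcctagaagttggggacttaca
Isg15 (GRCm38.p6, chr4:156200769-156201068, minus strand): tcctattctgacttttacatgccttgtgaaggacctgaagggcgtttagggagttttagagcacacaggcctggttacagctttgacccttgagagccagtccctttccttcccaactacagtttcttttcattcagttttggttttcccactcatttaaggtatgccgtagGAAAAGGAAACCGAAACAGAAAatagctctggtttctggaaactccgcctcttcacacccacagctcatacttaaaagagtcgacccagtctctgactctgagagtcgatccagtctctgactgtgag
Ifit1 (GRCm38.p6, chr19:34640639-34640938, plus strand): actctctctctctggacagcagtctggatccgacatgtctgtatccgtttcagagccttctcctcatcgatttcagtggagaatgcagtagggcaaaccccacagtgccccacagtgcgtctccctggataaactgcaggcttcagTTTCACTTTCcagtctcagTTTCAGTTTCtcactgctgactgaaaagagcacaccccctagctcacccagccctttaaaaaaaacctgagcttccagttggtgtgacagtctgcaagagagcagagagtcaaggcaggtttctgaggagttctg
The core began at -53 in Gbp7, at -59 in Gbp2 and at -34 in Igtp. Gbp3 held an overlapping pair at -45 and -39. Isg15 held 3 overlapping copies at -78, -72 and -66, and Ifit1 held separate copies at -104 and -85.

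The 43 genes varied together from library to library within a group. After the group means were removed, the mean pairwise Pearson correlation of their log2 CPM over the 16 batch 1 libraries was 0.492. It was 0.000541 over all 16168 genes tested, where scaling of the library totals tends to hold it near 0. The value over all genes is therefore a weak baseline. These are descriptions across libraries that share depth and composition. Within the 11 Ifit, Oas and ISG15-system genes the mean correlation was 0.590, within the 10 GTPase and class I genes 0.465, and between both sets 0.425. Oasl1, Ifit3, Xaf1 and Gbp3 followed the mean of the other members most closely (r = 0.906, 0.905, 0.899 and 0.896), and Stat2, Nlrc5, Tap1 and Oas2 least (r = 0.0384, 0.176, 0.188 and 0.298).

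The mean of the 43 genes varied widely between libraries of 1 group. Relative to the mean of Ctrl_RD, on the log2 CPM scale, NaV1.5_HFD libraries 1 to 5 stood at 0.09, 0.72, 0.53, 0.41 and 0.22. NaV1.5_RD libraries 1 to 4 stood at 0.10, 0.01, 0.05 and 0.23. Ctrl_HFD libraries 1 to 4 stood at 0.39, 0.10, 0.21 and 0.82, the last in batch 2, and Ctrl_RD libraries 1 to 4 at -0.23, -0.31, 0.23 and 0.31. High-fat and regular diet libraries overlapped in both genotypes on this mean. Ctrl_HFD replicate 4 was the highest of its group for 39 of the 43 genes (24.8% of all genes tested), with a median ratio of 1.44 to the mean of the other 3. NaV1.5_HFD replicate 2 was the highest of 5 for 67.4% of the members (18.1% of all genes), Ctrl_RD replicate 4 the highest of 4 for 65.1% (30.5%) and NaV1.5_RD replicate 4 the highest of 4 for 58.1% (35.3%).

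**Figure D1:**
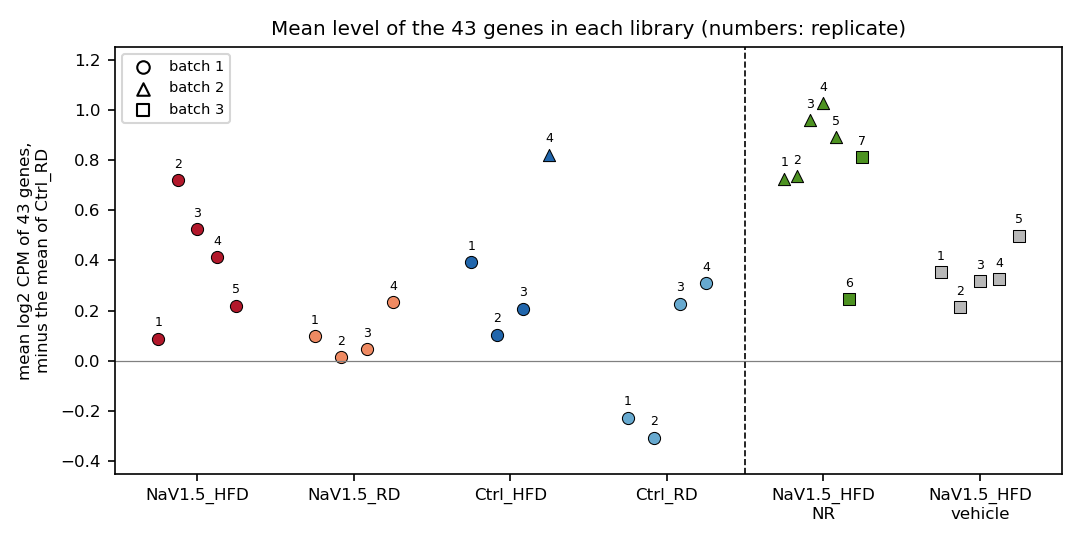
Mean log2 CPM of the 43 genes in each of the 29 libraries, as the difference from the mean of Ctrl_RD; marker shape gives the batch and the number gives the replicate. High-fat and regular diet libraries overlap, and Ctrl_HFD replicate 4 (0.82, batch 2) and NaV1.5_HFD replicate 2 (0.72) are the highest of the diet experiment.

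**Figure D2:**
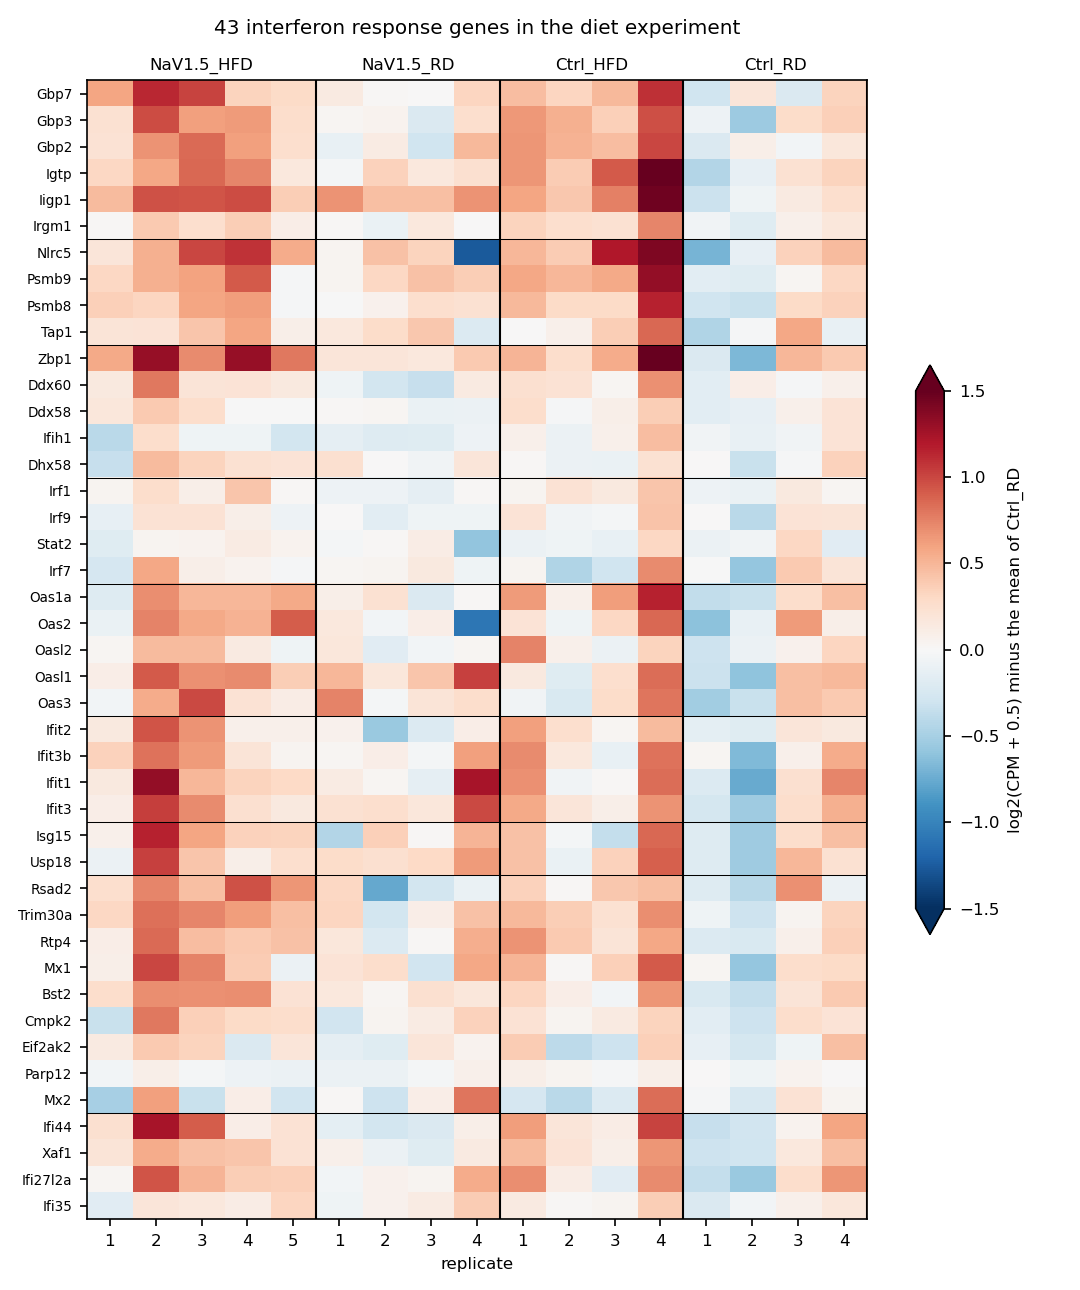
Level of each of the 43 genes (down the page, by role) in the 17 diet libraries (across), as log2(CPM + 0.5) minus the mean of Ctrl_RD, with colours capped at 1.5 in either direction. Whole columns share a colour: NaV1.5_HFD replicate 2 and Ctrl_HFD replicate 4 are high for most genes, Ctrl_RD replicates 1 and 2 low.

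Over both genotypes, 6 of the 43 genes rose on the high-fat diet and none fell. Of those 6, 5 are GTPases: the guanylate-binding proteins Gbp2, Gbp3 and Gbp7 and the immunity-related GTPases Igtp and Iigp1, with increases of 0.39 to 0.52 on the log2 scale. The sixth was Zbp1, a sensor of Z-form nucleic acid that can start cell death by necroptosis. Of the 11 classical type I targets of the Ifit, Oas and ISG15 groups, 0 were called, where 2.16% of all genes were called higher. Their differences ran from 0.14 to 0.46 for Ifit, -0.005 to 0.45 for Oas and 0.11 to 0.21 for ISG15 genes. By itself, 0 of 11 does not set them apart from the GTPases. The comparison over both genotypes averages the diet difference in NaV1.5 and control atria and was added after the single comparisons had been seen. A gene is called here at an adjusted p below 0.05, from edgeR's quasi-likelihood test with Benjamini-Hochberg adjustment over all genes tested. By that rule 4.95% of the 16168 genes tested were called, and 2.16% were called higher. An unadjusted p below 0.05 in the higher direction was found for 20 members (10.4% of all genes). The difference was above 0 for 40 of the 43 members (48.3% of all genes), with a median of 0.24 over the members and -0.01 over all genes. No member had all 8 high-fat batch 1 libraries above all 8 regular diet libraries (0.421% of all genes did).

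Gbp2 (chromosome 3, 142620602 to 142638008, plus strand) was the most abundant of the called genes per kb. It had 49.3, 67.9, 76.9, 65.3 and 50.6 CPM in NaV1.5_HFD libraries and 39.1, 46.2, 34.2 and 59.3 CPM in NaV1.5_RD libraries. It had 67.2, 61.1, 58.6 and, in batch 2, 85.1 CPM in Ctrl_HFD libraries and 36.2, 45.05, 41.0 and 47.9 CPM in Ctrl_RD libraries. The control groups did not overlap, and among NaV1.5 libraries the regular diet replicate 4 lay within the high-fat range. The difference with the diet was 0.51 ± 0.11 (log2, SE; adjusted p = 0.0200, edgeR quasi-likelihood test).

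Gbp3 and Gbp7, its neighbours on chromosome 3, are related guanylate-binding proteins. Gbp3 had 16.2, 27.4, 21.4, 21.7 and 16.6 CPM in NaV1.5_HFD libraries and 14.0, 14.3, 11.7 and 16.4 CPM in NaV1.5_RD libraries. It had 21.9, 20.03, 17.7 and 27.3 CPM in Ctrl_HFD libraries and 13.0, 9.24, 16.7 and 17.7 CPM in Ctrl_RD libraries. Both genotypes' ranges touched or overlapped by a single library, and the difference was 0.52 ± 0.13 (adjusted p = 0.0330). Gbp7 had 10.3, 15.2, 14.0, 8.56 and 8.22 CPM in NaV1.5_HFD libraries and 7.39, 6.74, 6.70 and 8.46 CPM in NaV1.5_RD libraries. It had 9.34, 8.44, 9.53 and 14.8 CPM in Ctrl_HFD libraries and 5.30, 7.63, 5.67 and 8.56 CPM in Ctrl_RD libraries. Its low high-fat libraries lay at the top of the regular diet range, and the difference was 0.52 ± 0.14 (adjusted p = 0.0376).

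The immunity-related GTPases Igtp and Iigp1 are interferon-induced proteins that in mice assemble on pathogen vacuoles. Igtp (chromosome 11) had 24.2, 29.2, 35.7, 32.7 and 21.7 CPM in NaV1.5_HFD libraries and 19.01, 24.9, 21.8 and 23.02 CPM in NaV1.5_RD libraries. It had 31.0, 25.4, 37.1 and 63.1 CPM in Ctrl_HFD libraries and 14.2, 17.7, 22.9 and 24.7 CPM in Ctrl_RD libraries. Control libraries did not overlap between diets, NaV1.5 libraries did, and the difference was 0.50 ± 0.13 (adjusted p = 0.0325). Iigp1 (chromosome 18) had 37.8, 52.9, 52.3, 53.8 and 34.9 CPM in NaV1.5_HFD libraries and 43.2, 37.1, 36.9 and 43.3 CPM in NaV1.5_RD libraries. It had 41.0, 36.0, 45.9 and 75.3 CPM in Ctrl_HFD libraries and 21.5, 25.8, 29.6 and 32.2 CPM in Ctrl_RD libraries. The control diets did not overlap and the NaV1.5 diets did. The difference was 0.58 ± 0.16 in control atria and 0.20 ± 0.14 in NaV1.5 atria, neither of them called. Over both genotypes it was 0.39 ± 0.11 (adjusted p = 0.0389, edgeR quasi-likelihood test). Irgm1, a regulator of this GTPase family and the member of the group not called, had a difference of 0.24 ± 0.07 (adjusted p = 0.0572).

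Zbp1 (chromosome 2) is expressed at a low level in these atria. It had 4.99, 8.63, 5.51, 8.66 and 5.90 CPM in NaV1.5_HFD libraries and 3.70, 3.68, 3.64 and 4.34 CPM in NaV1.5_RD libraries. It had 4.75, 3.92, 4.92 and 13.6 CPM in Ctrl_HFD libraries and 2.69, 1.81, 4.72 and 4.34 CPM in Ctrl_RD libraries. All NaV1.5_HFD libraries exceeded all NaV1.5_RD libraries, while the control groups overlapped. The difference over both genotypes was 0.61 ± 0.17, at an adjusted p of 0.0499.

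**Figure D3:**
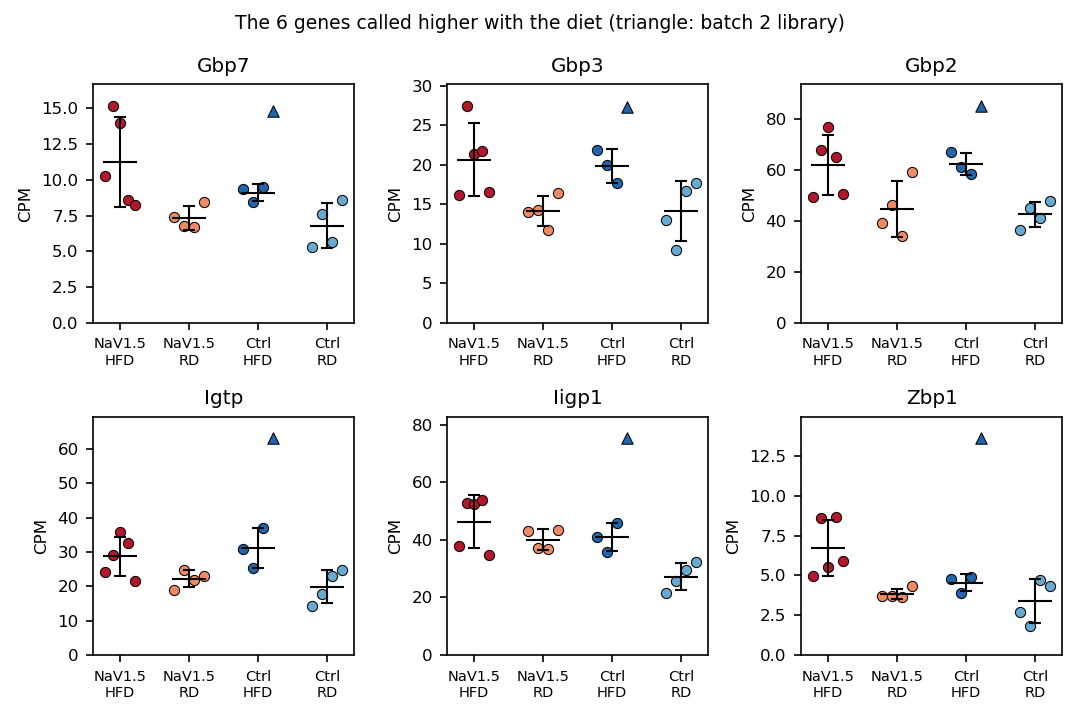
CPM of the 6 genes called higher with the high-fat diet over both genotypes, in each library of the 4 diet groups; bars give mean and SD of the batch 1 libraries and the triangle is the batch 2 library. For Gbp2, Igtp and Iigp1 the batch 1 Ctrl_HFD points lie above all Ctrl_RD points, and for Zbp1 the NaV1.5_HFD points lie above all NaV1.5_RD points.

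The count of 6 depended on single libraries. Leaving out 1 library at a time gave 0 called members without Ctrl_HFD replicate 1. Gbp2 alone was called without NaV1.5_HFD replicate 2 or 3, NaV1.5_RD replicate 1 or 3 or Ctrl_RD replicate 1, and Igtp alone without Ctrl_HFD replicate 2. Gbp2 and Igtp were called without NaV1.5_RD replicate 2, Gbp2 and Gbp3 without Ctrl_HFD replicate 3, and Gbp2, Gbp3 and Gbp7 without Ctrl_RD replicate 2. Zbp1 also lost its call without NaV1.5_HFD replicate 4 or 5, and Gbp7 and Iigp1 theirs without Ctrl_RD replicate 3. All 6 were called among 11 members without NaV1.5_RD replicate 4, where 13.4% of all genes were called, and among 12 without Ctrl_RD replicate 4, where 7.21% were. Gbp2 was called in 15 of the 17 leave-outs, its adjusted p reaching 0.0615 without Ctrl_HFD replicate 1 and 0.0517 without Ctrl_HFD replicate 2. The highest adjusted p of the other 5 over all leave-outs was 0.0783 for Igtp, 0.0883 for Gbp7, 0.0887 for Iigp1, 0.0935 for Gbp3 and 0.114 for Zbp1. The difference of all 6 stayed above 0 in every leave-out.

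Some marker sums and base composition also differed with the diet, while many marker sums overlapped between diets. The summed level of 5 monocyte markers was 9.36 to 23.4 CPM in NaV1.5_HFD libraries against 7.65 to 14.6 CPM in NaV1.5_RD libraries. It was 12.7 to 12.8 CPM in batch 1 Ctrl_HFD libraries, within the 6.28 to 13.1 CPM of Ctrl_RD libraries. The batch 2 Ctrl_HFD library, which did not enter the fitted differences, had 25.6 CPM. None of the 5 was at 0 in any group and none was called. The 6 dendritic cell markers summed to 17.1 to 27.0 CPM in NaV1.5_HFD libraries against 14.7 to 18.4 CPM in NaV1.5_RD libraries. They summed to 18.1 to 19.5 CPM in batch 1 Ctrl_HFD libraries and 25.5 CPM in batch 2, against 14.4 to 17.3 CPM in Ctrl_RD libraries. All 6 differences were above 0, with a median of 0.43 and 0 called. The 6 plasmacytoid dendritic cell markers summed to 134.5 to 158.6 CPM in NaV1.5_HFD libraries against 125.04 to 129.2 CPM in NaV1.5_RD libraries. These ranges did not overlap, but the sum includes the member Bst2, at 50.3 to 70.6 CPM against 44.2 to 51.3 CPM. NaV1.5_HFD replicate 2 had 148.9 CPM, 70.6 of it Bst2, and NaV1.5_RD replicate 2 had 125.3 CPM, 44.2 of it Bst2. With Bst2 left out of the sum the ranges overlapped, so the separation rests on that member. In batch 1 Ctrl_HFD libraries the markers summed to 120.2 to 125.2 CPM, within the 106.8 to 127.1 CPM of Ctrl_RD libraries. The batch 2 Ctrl_HFD library had 173.2 CPM. Of the 6 markers, 1 was at 0 in NaV1.5_RD. The 4 tested were all above 0 and 0 were called. The 12 macrophage markers overlapped between diets, at 695 to 869 CPM in NaV1.5_HFD libraries against 739 to 827 CPM in NaV1.5_RD libraries. They summed to 620 to 752 CPM in batch 1 Ctrl_HFD libraries and 813 CPM in batch 2, against 578 to 821 CPM in Ctrl_RD libraries. Of these markers 1, Mrc1, was called higher (0.27 ± 0.07, adjusted p = 0.0453, edgeR quasi-likelihood test). The 8 atrial cardiomyocyte markers summed to 71461 to 79368 CPM in NaV1.5_HFD libraries against 82665 to 89242 CPM in NaV1.5_RD libraries. They summed to 81872 to 86871 CPM in batch 1 Ctrl_HFD libraries and 75594 CPM in batch 2, against 87444 to 92548 CPM in Ctrl_RD libraries. Nppa was called lower (-0.36 ± 0.07, adjusted p = 0.00998, edgeR quasi-likelihood test). In whole tissue, more cells of a type and more RNA per cell cannot be told apart. Mitochondrial transcripts took 20.40% to 25.27% of counts in NaV1.5_HFD libraries against 18.82% to 20.62% in NaV1.5_RD libraries, and 20.39% to 26.58% in Ctrl_HFD libraries against 18.71% to 21.89% in Ctrl_RD libraries. The part of these markers and shares in the GTPase result was not tested. Genes called higher had a median GC content of 43.3% and genes called lower 56.2%, against 49.5% in the members and 49.7% in all genes tested. Of the 6 called members, Iigp1 had 39.3%, Gbp7 41.7%, Gbp3 45.9%, Gbp2 46.8%, Igtp 49.5% and Zbp1 51.0%. With offsets for GC content and length the members called were 3, of which Gbp2 (0.47, adjusted p = 0.0304) was the only one of the 6, and 1.4% of all genes were called; the other 2 were Irf1 and Psmb9. Under these offsets Zbp1 had 0.65 (adjusted p = 0.0635), Igtp 0.50 (adjusted p = 0.0647) and Gbp3 0.46 (adjusted p = 0.0797). Gbp7 had 0.40 (adjusted p = 0.109), and Iigp1 had 0.25 (adjusted p = 0.263) against 0.39 without them.

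Among the other sensors, no gene was called over both genotypes. Ifih1 and Ddx58, helicases that detect viral RNA, had differences of 0.03 ± 0.09 and 0.15 ± 0.08, and Dhx58, a related regulator, 0.01 ± 0.13. Ddx60, a helicase linked to the same pathway, had 0.36 ± 0.14 (adjusted p = 0.129). The transcription factors had the lowest group median, 0.04. Irf1, a factor induced mainly by interferon gamma, had a difference of 0.18 ± 0.07 (adjusted p = 0.107), Irf9 of 0.08 ± 0.09 and Stat2 of 0.00 ± 0.09. Irf7, which amplifies type I interferon production, had -0.10 ± 0.13 (adjusted p = 0.686).

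The class I antigen presentation genes had a median difference of 0.33, with 4 of 4 above 0 and 0 called. Psmb9 and Psmb8, immunoproteasome subunits, had 0.37 ± 0.11 (adjusted p = 0.0599) and 0.29 ± 0.11 (adjusted p = 0.127). Psmb9 had 22.2, 20.9, 21.97 and 37.5 CPM in Ctrl_HFD libraries against 12.9 to 18.3 CPM in the 4 Ctrl_RD libraries, which did not overlap. In NaV1.5_HFD libraries it had 18.4, 21.4, 22.5, 28.1 and 14.5 CPM against 15.2, 18.2, 20.1 and 19.1 CPM in NaV1.5_RD libraries, which overlapped. Nlrc5, the transactivator of class I genes, had the largest difference of the 43, 0.72 ± 0.25 (adjusted p = 0.102). In NaV1.5_RD, its replicate 4 stood at 1.54 CPM against 4.56 to 6.16 CPM in the other 3 libraries of its group. Tap1, the peptide transporter beside Psmb9, had 0.12 ± 0.13.

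The oligoadenylate synthetases, which activate RNase L, and their relatives had a median of 0.25. Oas1a had 0.45 ± 0.17 (adjusted p = 0.122), Oas2 0.41 ± 0.21, Oasl2 0.25 ± 0.13, Oasl1 0.01 ± 0.21 and Oas3 0.00 ± 0.28. Of the Ifit genes, whose products bind foreign RNA, Ifit2 had 0.46 ± 0.15 (adjusted p = 0.0785) and Ifit1, Ifit3 and Ifit3b had 0.14 to 0.24. Ifit1 shows the spread: it had 9.76, 22.6, 12.6, 11.1 and 10.9 CPM in NaV1.5_HFD libraries against 9.60, 8.92, 7.91 and 21.3 CPM in NaV1.5_RD libraries. A single library in each of those groups was about as high, and the groups overlapped. Isg15, a ubiquitin-like modifier, and Usp18, the protease that removes it and restrains the type I receptor, had 0.21 ± 0.20 and 0.11 ± 0.18.

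The remaining antiviral genes had a median of 0.24, with 8 of 9 above 0. Rsad2, an enzyme that makes a chain-terminating nucleotide, had 0.51 ± 0.18 (adjusted p = 0.0906), and its neighbour Cmpk2, a nucleotide kinase, 0.19 ± 0.15. Trim30a, of the tripartite motif family, came closest to the threshold after Zbp1, at 0.40 ± 0.12 (adjusted p = 0.0526). Eif2ak2, the kinase that halts translation on double-stranded RNA, had 0.05 ± 0.13, and Parp12 had 0.01 ± 0.05. Mx2, a dynamin-like GTPase, was the member furthest below 0, at -0.31 ± 0.21 (adjusted p = 0.38), while its relative Mx1 had 0.33 ± 0.23. Of the mixed induced set, Ifi44 had 0.55 ± 0.19 (adjusted p = 0.094), Xaf1 0.31 ± 0.11 (adjusted p = 0.0927), Ifi27l2a 0.24 ± 0.19 and Ifi35 0.02 ± 0.08.

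Within NaV1.5 mice, 0 members were called between NaV1.5_HFD and NaV1.5_RD by edgeR (1.13% of all genes were called), 6 by DESeq2 (5.25%) and 10 by limma-voom (12.1%). An unadjusted p below 0.05 was found for 16 members, all higher (8.38% of all genes higher). The difference was above 0 for 40 of 43 (47.7% of all genes), with a median of 0.24 over the members and -0.01 over all genes. In 4 members, Zbp1, Ifi44, Ddx60 and Xaf1, all NaV1.5_HFD libraries exceeded all NaV1.5_RD libraries (2.75% of all genes). Ifi44 had 6.13, 12.7, 10.04, 5.52 and 6.00 CPM in NaV1.5_HFD libraries against 4.56, 4.14, 4.34 and 5.44 CPM in NaV1.5_RD libraries, a difference of 0.81 ± 0.26 (adjusted p = 0.108). Rsad2 had 9.53, 13.5, 11.0, 15.8 and 12.8 CPM in NaV1.5_HFD libraries against 9.89, 4.43, 6.44 and 7.36 CPM in NaV1.5_RD libraries. These overlapped only through the lowest high-fat and the highest regular diet library, and the difference was 0.82 ± 0.24 (adjusted p = 0.0786). Zbp1 had 0.81 ± 0.23 (adjusted p = 0.0748) and Gbp7 0.62 ± 0.18 (adjusted p = 0.0863). Leaving out NaV1.5_RD replicate 4 gave 4 called members, Gbp2 (adjusted p = 0.0192), Zbp1, Gbp7 and Trim30a, with 6.92% of all genes called. Leaving out NaV1.5_HFD replicate 4 gave 1, Gbp7 (adjusted p = 0.0461), with 3.14% of all genes called.

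Within control mice, 0 members were called between Ctrl_HFD and Ctrl_RD by edgeR, DESeq2 or limma-voom (0% of all genes by edgeR). In 7 members, all higher, the unadjusted p was below 0.05 (3.73% of all genes higher). The difference was above 0 for 36 of 43 (49.1% of all genes), with a median of 0.20 over the members and 0.00 over all genes. For Gbp2, Irgm1, Igtp, Psmb9 and Iigp1 the batch 1 Ctrl_HFD libraries lay above all Ctrl_RD libraries (5.55% of all genes). Igtp had the largest of these differences, 0.64 ± 0.19 (adjusted p = 0.517), followed by Iigp1 at 0.58 ± 0.16 (adjusted p = 0.48). Irgm1 had 36.2, 34.4 and 33.8 CPM in the batch 1 Ctrl_HFD libraries and 48.0 CPM in the batch 2 library, against 27.7, 25.2, 30.2 and 32.3 CPM in Ctrl_RD libraries, a difference of 0.26 ± 0.11.

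The interaction, the diet difference in NaV1.5 atria minus that in control atria, called 0 members by edgeR, DESeq2 or limma-voom (0% of all genes by edgeR), with 0 members at an unadjusted p below 0.05 (2.26% of all genes). The median over the members was 0.09, and it was -0.031 without Ctrl_RD replicate 4, -0.0017 without NaV1.5_HFD replicate 2 and -0.068 with no batch term. Iigp1 had an interaction of -0.38 ± 0.21, Rsad2 of 0.62 ± 0.35 and Oas2 of 0.64 ± 0.41, each with an adjusted p of 1. Both genotypes' own differences were above 0 for 34 members, against 33.6% of all genes.

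**Figure D4:**
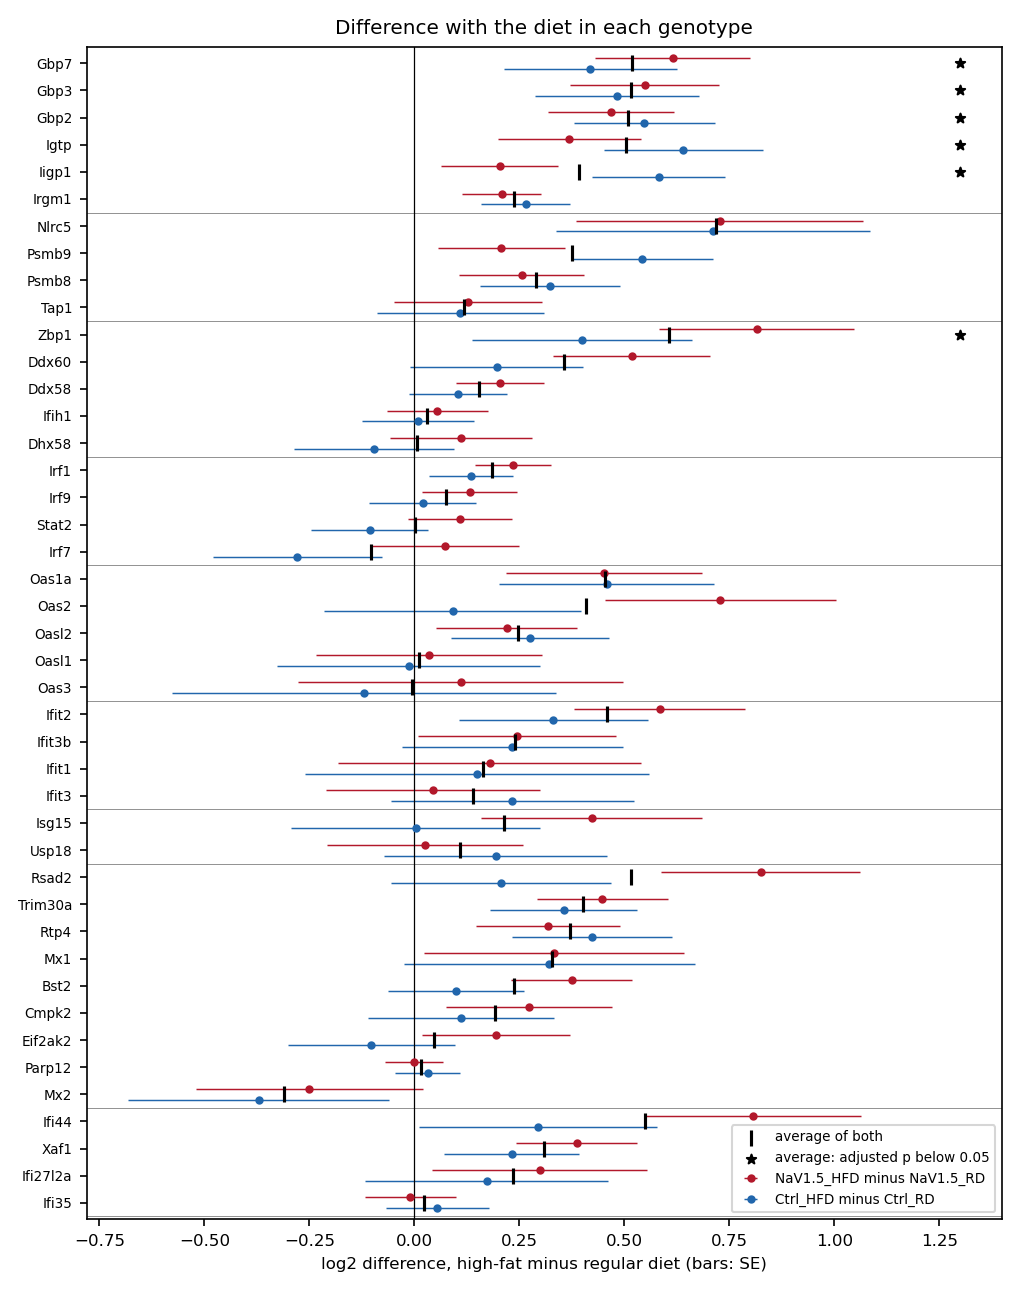
Log2 difference between high-fat and regular diet for each of the 43 genes (down the page), in NaV1.5 and in control atria, with bars for the SE. Most points lie right of 0 in both genotypes (40 and 36 of 43), and the bars of both genotypes overlap for most genes.

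No member was called between the genotypes. On the high-fat diet, 0 members were called between NaV1.5_HFD and Ctrl_HFD by edgeR, DESeq2 or limma-voom (0.0866% of all genes by edgeR), with 2 at an unadjusted p below 0.05 (8.05% of all genes), Zbp1 at 0.59 ± 0.25 and Bst2 at 0.40 ± 0.16. The difference was above 0 for 34 of 43 (51.2% of all genes), with a median of 0.17. That median was 0.053 without NaV1.5_HFD replicate 2 and -0.0051 with no batch term, so its sign depended on the setting. Zbp1 alone had all 5 NaV1.5_HFD libraries above the 3 batch 1 Ctrl_HFD libraries (2.72% of all genes), but the batch 2 Ctrl_HFD library, at 13.6 CPM, was above all of them. On regular diet, 0 members were called between NaV1.5_RD and Ctrl_RD by the same 3 tools (0.0124% of all genes by edgeR), with 1 at an unadjusted p below 0.05 (6.11% of all genes). That gene was Iigp1, which had 43.2, 37.1, 36.9 and 43.3 CPM in NaV1.5_RD libraries, all above the 21.5, 25.8, 29.6 and 32.2 CPM of Ctrl_RD libraries, as 1.69% of all genes were. Its difference was 0.56 ± 0.15 (adjusted p = 0.466). The difference was above 0 for 25 of 43 members (51.4% of all genes), with a median of 0.08. That median was -0.049 without Ctrl_RD replicate 2, -0.0069 without Ctrl_RD replicate 1, 0.19 without Ctrl_RD replicate 4, 0.0058 when NaV1.5_RD replicate 4 was left out and -0.0031 with the replicate block. Over both diets, a comparison added after the single ones had been seen, edgeR and DESeq2 called 0 members (0.452% of all genes by edgeR) and limma-voom 2, Oasl1 and Iigp1 (3.23% of all genes). In 34 members the difference was above 0 (51.5% of all genes), with a median of 0.10. In edgeR, 4 members had an unadjusted p below 0.05 (11.4% of all genes): Oasl1 (0.58 ± 0.21), Zbp1 (0.38 ± 0.18), Iigp1 (0.37 ± 0.11) and Bst2 (0.26 ± 0.11).

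Interferons themselves were at or near the limit of detection. Of 10 interferon genes listed, 6 had 0 counts in all 29 libraries, where a count of 0 allows up to 3 counts per library. Ifng, encoding interferon gamma, had 35 counts in all, at most 4 in a library, in 19 of the 29 libraries, and the other 3 genes had 5 counts together. Among receptors and kinases 0 of 9 were called over both genotypes (4.95% of all genes were called, 2.16% higher). Ifnar1 and Ifnar2, the type I receptor chains, had -0.03 ± 0.07 and 0.03 ± 0.07, and Ifngr1 and Ifngr2, the type II receptor chains, 0.08 ± 0.06 and 0.08 ± 0.05. Of 7 other transcription factors tested none was called. In nucleic acid sensing, 0 of 11 tested were called higher and 1 lower: Ticam1, an adaptor of Toll-like receptors (-0.38 ± 0.10, adjusted p = 0.0382). The adaptors Mavs and Sting1 had 0.01 ± 0.07 and 0.17 ± 0.10, and the DNA sensor Cgas 0.07 ± 0.21. Of 9 negative regulators tested, the deubiquitinase Usp25 was called higher (0.37 ± 0.07, adjusted p = 0.0124).

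A list of 44 other interferon targets was tested beside the members. Like the members, it was chosen with earlier results of these data known, so it gives no independent support. Of the 43 of them that were tested, 7 were called higher with the diet over both genotypes and 0 lower, with a median of 0.30. Over all genes tested, 2.16% were called higher. They included the GTPases Gbp4 (0.72 ± 0.15, adjusted p = 0.0163), Gbp5 (0.60 ± 0.13, adjusted p = 0.0192) and Irgm2 (0.51 ± 0.11, adjusted p = 0.0176). The other 4 were Ifi203, Samd9l, Parp14 and Pnpt1, with differences of 0.32 to 0.47. Of 19 antigen presentation genes, 1 was called higher: B2m, the light chain of class I molecules (0.48 ± 0.12, adjusted p = 0.0262). Apart from Samd9l, Parp14 and Usp25, which were also called within NaV1.5 mice, these genes were picked out after their values were seen.

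The genes outside the 43 whose level followed the members most closely over the 16 batch 1 libraries, as deviations from the group mean, were Fxyd5 (r = 0.949), Parp9 (0.932), Slc25a5-ps (0.913), Plac8 (0.910), Arpc1b (0.909), Tmsb10 (0.901), Tor3a (0.898), Ifitm3 (0.896), Asah1 (0.894) and Timp1 (0.894). Parp9, Tor3a and Ifitm3 stand in the lists of interferon targets, and Plac8 in the list of monocyte markers. The correlations are over all genes ranked for likeness and carry no p.

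For nicotinamide riboside, 1 member was called higher and none lower in NR against vehicle atria: Oas2, an oligoadenylate synthetase. By that rule 0.425% of the 16482 genes tested were called, and 0.0849% higher. All vehicle libraries are in batch 3, and NR replicates 1 to 5 are in batch 2, so with batch in the fit the difference rests on NR replicates 6 and 7 against the 5 vehicle libraries. Oas2 had 17.6 and 23.3 CPM in the batch 3 NR libraries, against 10.6, 10.5, 11.2, 12.9 and 11.3 CPM in vehicle libraries. Both NR libraries lay above all vehicle libraries, and the difference was 0.87 ± 0.17 (log2, SE; adjusted p = 0.0427, edgeR quasi-likelihood test). The NR libraries of batch 2 had 11.4, 11.4, 10.1, 17.8 and 13.0 CPM, which overlap the vehicle range. Leaving out 1 library at a time, Oas2 was called without NR replicate 3, 4 or 6 and was not called in the other 9 of 12 leave-outs, in which its adjusted p reached 0.685; over all 12, its difference ranged from 0.65 to 1.07.

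Of the other members, an unadjusted p below 0.05 was found for 8 more in the higher direction, 9 with Oas2 (4.3% of all genes), and for 1 in the lower direction (6.8%). Trim30a had 21.3 and 28.6 CPM in batch 3 NR libraries against 20.6, 18.4, 17.3, 19.7 and 19.3 CPM in vehicle libraries, a difference of 0.41 ± 0.11 (adjusted p = 0.122). Oas2, Trim30a and Ifi35 had both batch 3 NR libraries above all vehicle libraries (4.87% of all genes). Gbp7 was the lower one, with 20.5 and 26.4 CPM in batch 3 NR libraries against 28.0, 26.7, 32.4, 29.8 and 34.3 CPM in vehicle libraries, which do not overlap (9.11% of all genes lower). Its difference was -0.34 ± 0.12 (adjusted p = 0.293), while its neighbours Gbp2 and Gbp3 had 0.28 ± 0.18 and 0.25 ± 0.14. The GTPases Igtp and Iigp1, which rose with the diet over both genotypes, had 0.13 ± 0.25 and -0.01 ± 0.23 here. Zbp1 had 4.15 and 8.37 CPM in batch 3 NR libraries against 3.75, 3.48, 3.96, 4.20 and 5.13 CPM in vehicle libraries, a difference of 0.64 ± 0.23 (adjusted p = 0.294).

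The difference was above 0 for 38 of the 43 members (48.8% of all genes), with a median of 0.25 over the members and -0.01 over all genes. NR replicate 7 exceeded NR replicate 6 for 41 of the 43 (45.6% of all genes), with a median ratio of 1.40. Without NR replicate 7 the median of the members was -0.068, and without NR replicate 6 it was 0.48, so its sign depended on a single library. The number of members called was 5 without NR replicate 6 (Oas2, Oasl2, Ifit3, Trim30a and Zbp1) and 0 without NR replicate 1, 2, 5 or 7 or without any 1 of the 5 vehicle libraries.

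The batch 2 NR libraries stood apart from batch 3. For 21 members all 5 of them lay above all vehicle libraries (23% of all genes), and for 1, Rsad2, all lay below (22.5%). Gbp2 had 115, 86.1, 108, 106 and 86.3 CPM in batch 2 NR libraries and 40.1 and 64.6 CPM in batch 3 NR libraries, against 48.0, 35.3, 46.2, 42.5 and 46.9 CPM in vehicle libraries. Rsad2 had 15.3, 10.5, 12.8, 13.0 and 15.5 CPM in batch 2 NR libraries and 16.7 and 20.2 CPM in batch 3 NR libraries, against 17.2, 18.7, 20.1, 21.2 and 27.0 CPM in vehicle libraries. In both genes the batch 3 NR libraries overlapped vehicle. The atrial cardiomyocyte markers summed to 26723 to 32801 CPM in the batch 2 NR libraries and 64387 to 70144 CPM in the batch 3 NR libraries, against 59012 to 73678 CPM in vehicle libraries. Markers of several other cell types were higher in the batch 2 NR libraries. Sums for macrophages, T cells, neutrophils, dendritic cells and adipocytes overlapped those of vehicle libraries. Monocyte markers summed to 30.4 to 44.5 CPM in the batch 2 NR libraries and 15.7 to 16.1 CPM in the batch 3 NR libraries, against 10.6 to 22.6 CPM in vehicle libraries. Plasmacytoid dendritic cell markers summed to 174.6 to 201.5 CPM in the batch 2 NR libraries against 135.8 to 159.96 CPM in vehicle libraries. They summed to 135.2 to 142.9 CPM in the batch 3 NR libraries. This sum includes the member Bst2, at 39.8 to 51.2 CPM in batch 2 NR libraries against 25.1 to 30.8 CPM in vehicle libraries. NR replicate 3 had a sum of 174.6 CPM, 48.1 of it Bst2, and vehicle replicate 2 had 159.96 CPM, 25.1 of it Bst2. Once Bst2 was left out of the sum the ranges overlapped, so the full separation rests on that member. Endothelial markers summed to 1518 to 1822 CPM in the batch 2 NR libraries and 1012 to 1204 CPM in the batch 3 NR libraries, against 1010 to 1233 CPM in vehicle libraries. Fibroblast markers summed to 3107 to 3724 CPM in the batch 2 NR libraries and 2310 to 2640 CPM in the batch 3 NR libraries, against 2119 to 2400 CPM in vehicle libraries. The sums of natural killer cell and B cell markers in batch 2 also lay above all vehicle libraries. Erythroid markers summed to 1914 to 4195 CPM in the batch 2 NR libraries, against 921 to 1400 CPM in vehicle libraries. In the batch 3 NR libraries they summed to 1175 to 1521 CPM. The part of these markers in the members' levels was not tested. Batch and treatment cannot be told apart for the batch 2 libraries, and the fit with no batch term, which takes their difference from vehicle as treatment, called 24 members and 26.6% of all genes.

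**Figure D5:**
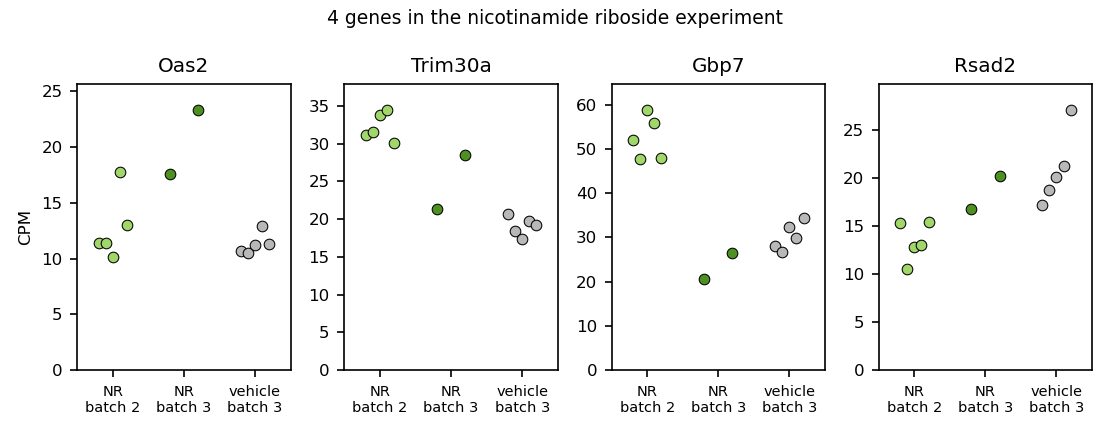
CPM of Oas2, Trim30a, Gbp7 and Rsad2 in each library of the nicotinamide riboside experiment, with NR libraries of batch 2 and batch 3 to the left of vehicle (batch 3). Both batch 3 NR points lie above all vehicle points for Oas2 and Trim30a and below them for Gbp7; Gbp7 in batch 2 lies above and Rsad2 in batch 2 below all vehicle points.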

How the data were processed

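Each deposited file holds the authors' raw counts, the number of read pairs on each gene symbol, from featureCounts 2.0.1 with a GENCODE vM25 annotation of GRCm38 to which a record named flag was added, per the file headers. The headers set no strand option and exclude pairs with several mapping places or several genes, so overlapping genes and near-identical copies are uncertain. A stranded TruSeq preparation with poly-A selection was made from 500 ng or more of RNA (miRNeasy micro kit), per the labels' protocols, and STAR 2.7.6a and FastQC 0.11.7 were used, per the submitters' processing notes. No source used here describes trimming.

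Groups and batches follow the labels. The titles give no number for Ctrl_RD replicate 1 or for NaV1.5_RD replicate 4, so those numbers are names only. No libraries held identical counts. Genes were tested with edgeR 4.0.16 in R 4.3.3 (filterByExpr, TMM scaling, robust quasi-likelihood F-test, 2-sided), with group and batch as terms, in a fit of the 17 diet libraries and another of the 12 libraries of the nicotinamide riboside experiment. P-values were adjusted by Benjamini-Hochberg over all 16168 and 16482 genes kept, with a threshold of 0.05. Errors of log2 differences are SEs, computed as the absolute difference over the root of its F statistic. Correlations and library means were taken on log2 CPM (prior count 2). DESeq2 1.42.0, limma-voom (limma 3.58.1, with quality weights), other filters and scalings, offsets for GC content and length, and leaving out each library were the alternatives. The fits were tested on simulated data. A log2 change of 0.58 was recovered in 24% of changed genes for the interaction and 34% between Ctrl_HFD and Ctrl_RD. Recovery was 54% between NaV1.5_HFD and NaV1.5_RD, 46% between genotypes on the high-fat diet and 50% on regular diet. Changes of that size can therefore go uncalled, so 0 called members does not show that nothing changed. Same-numbered libraries of different groups correlated by -0.161 to 0.164 over 16328 genes, so the numbers were not taken as pairs.

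The members and lists were chosen with earlier results of these data known. All 43 members may be named. Of the other pathway lists, genes called in a comparison and a fixed set of receptors, kinases and sensors may be named, and of all further genes the 10 most like the mean of the members. The comparisons over both genotypes and over both diets, and the GC offsets, were added after seeing the data. Promoter windows came from a RefSeq table of GRCm38.p6, matched by symbol.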

Additional observations from a re-analysis of the deposited data

Results flagged for a closer look

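In groups of 4 or more libraries, 19 of 258 sets of member values held a library far from the others by Dixon's ratio, against 12.9 that chance gives at 1 in 20, and the genes are not independent of each other. NaV1.5_RD replicate 4, 1 of the libraries with no number in its title, was the high one in 6 of the 19: Zbp1 at 4.34 CPM, Ifit1 at 21.3 CPM, Ifit3 at 45.6 CPM, Ifit3b at 11.8 CPM, Usp18 at 9.05 CPM and Ifi27l2a at 89.5 CPM. In the same library Nlrc5 (1.54 CPM), Oas2 (3.38 CPM) and Stat2 (18.2 CPM) were the lowest of their group.

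Ctrl_HFD replicate 4, the batch 2 library of the diet experiment, was the high one in 5: Zbp1 at 13.6 CPM, Stat2 at 34.6 CPM, Mx2 at 5.20 CPM, Gbp7 at 14.8 CPM and Psmb9 at 37.5 CPM. NaV1.5_HFD replicate 2 was high for Ddx60 at 5.51 CPM and Ifit1 at 22.6 CPM, and NaV1.5_HFD replicate 1 was low for Oas1a at 2.78 CPM. In the nicotinamide riboside experiment, NR replicate 7 was high for Oasl1 at 4.33 CPM and Cmpk2 at 14.1 CPM, and NR replicate 6 was low for Ifit2 at 15.6 CPM. Vehicle replicate 5 was high for Mx2 at 4.24 CPM, and vehicle replicate 2 was low for Gbp3 at 19.8 CPM.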

How the results depend on the processing

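The 6 members called with the diet over both genotypes (4.95% of all genes called) became 11 with no batch term (6.68%), 3 with GC and length offsets (1.4%), 13 by DESeq2 (1617 of 16168 genes), 19 by limma-voom (24.1%) and 11 with all 29 libraries in one fit (8.67%), and leaving out 1 library gave 0 to 12. The replicate block, with the unnumbered libraries left out, gave 5 (1.86%), and no paired fit was possible for NR because its batch term takes up the numbers. The 0 members called between NaV1.5_HFD and NaV1.5_RD became 6 by DESeq2 (5.25% of all genes), 10 by limma-voom (12.1%) and 3 with all 29 libraries in one fit (4.11%), and 0 to 4 on leaving out 1 library. For NR the 1 called member became 24 with no batch term (26.6% of all genes), 0 with GC and length offsets (0.0679%), 2 by DESeq2 (Oas2 and Trim30a; 1.54%) and 0 with all 29 libraries in one fit (0.151%). Leaving out 1 library there gave 0 to 5 called members and a median of -0.068 to 0.48. Over both diets, the 0 called between genotypes became 2 by limma-voom (3.23% of all genes). The cause of these shifts was not tested. The other counts were within 1.5 times and the other medians moved by less than the spread between libraries, although those between genotypes on each diet and of the interaction changed sign under some settings, as given with them. Among single genes, 3 values changed sign: Zbp1 between NaV1.5_HFD and Ctrl_HFD was -0.000836 with no batch term, and for NR Gbp7 was 0.55 with no batch term and Ifit3 was -0.082 without NR replicate 7, in a leave-out range of -0.082 to 0.98. Of the remaining single-gene values, 1110 kept their direction and side of the threshold, 91 newly passed it and 74 no longer did. DESeq2 gave no adjusted p for 13165 of 16168 genes between Ctrl_HFD and Ctrl_RD. Low counts limit Oas3, with 7 to 58 counts per library.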

Other observations

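Levels of some members differed between the experiments. Gbp7 had 8.22 to 15.2 CPM in NaV1.5_HFD libraries of the diet experiment and 26.7 to 34.3 CPM in vehicle libraries of the nicotinamide riboside experiment, both from NaV1.5 mice on the high-fat diet. Psmb8, an immunoproteasome subunit, went the other way, with 22.8 to 35.8 CPM in NaV1.5_HFD libraries and 9.41 to 12.1 CPM in vehicle libraries. These groups are in batch 1 and batch 3, so batch, vehicle and experiment cannot be told apart, and no test was made across them.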
